A study of Homo sapiens with 24 samples.

Results

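The 6 untreated libraries of the series were compared with each other, 3 whose titles start with OLC and 3 whose titles start with OC, out of 24 libraries in all. Members were chosen by the label untreated and by the title prefix, with no use of measured values. Each set held 1 untreated library of HH (cutaneous T-cell lymphoma), 1 of PF382 (T-cell acute lymphoblastic leukemia) and 1 of TLOm1 (adult T-cell leukemia), so that every library had a partner of the same established line. The remaining 18 libraries were treated, 9 with azacitidine in the OLC set and 9 with decitabine in the OC set, with drug added daily over 96 h to cells in logarithmic growth. The treated libraries of a line within a set each had another dose. The range of azacitidine doses was lower in HH than in PF382 and TLOm1, while the decitabine doses were the same in each line. No genetic change is given for any line, and neither prefix is explained in the labels.

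A cell line carries a stable pattern of expression set by its lineage and mutations, on which the state of the culture is laid: feeding, density and oxygen alter genes of glycolysis, of the hypoxia response and of early growth signals. RNA sequencing adds the base composition of a transcript, the presence of a poly(A) tail and likeness to other genes to what sets a count. Each set contained all lines, so the culture and the making of the libraries go with the set, and cannot be told apart.

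All 6 libraries carried T-cell genes, and the lines differed in which. CD3E, a chain of the T-cell receptor complex, was at 85.1, 567 and 41.5 CPM (the count relative to the library's total, after scaling by the trimmed mean of M-values) in HH, PF382 and TLOm1 of the OLC set, and at 126, 562 and 34.4 CPM in the OC set. CD4, the helper co-receptor, was at 593, 29.9 and 995 CPM in OLC and 548, 18.8 and 859.7 CPM in OC. LCK, the kinase that starts receptor signalling, was at 0, 704 and 1.39 CPM in OLC and 0.262, 531 and 0 CPM in OC, and was thus all but absent from HH and TLOm1. CD7 was likewise under 1 CPM in both libraries of HH and TLOm1. Of the lists for other cell types, the erythroid and platelet list summed to 0.0587 to 0.606 CPM over the 6 libraries, the myeloid list to 3.23 to 5.93 CPM, the epithelial list to 3.87 to 122 CPM and the list of fibroblasts and endothelium to 2.64 to 105 CPM. In TLOm1 CDH1, E-cadherin, was at 39.7 CPM in OLC and 76.8 CPM in OC, and PDGFRB, a growth factor receptor, at 90.2 CPM and 89.6 CPM. BLK, a kinase of B cells, was high in HH alone, at 426 CPM in OLC and 367 CPM in OC.

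The OC libraries were the shallower, with 15348774 to 21609812 counts against 22914158 to 24608889. Libraries of a line resembled each other more than libraries of a set did. Pearson's correlation of log2 CPM over 15501 genes was 0.991 for the HH pair, 0.988 for PF382 and 0.993 for TLOm1, and at most 0.870 between lines, given as a description across genes.

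The first comparison asked which genes differed between untreated cells of the same lines in the OC and OLC sets. In edgeR's quasi-likelihood test with the line as a block, 867 genes were higher and 779 lower in OC among 15501 tested (Benjamini-Hochberg adjusted p under 0.05), that is 5.59% and 5.03%, or 10.6% in either direction. Most of these changes were small. Their median size was 0.49 on the log2 scale, and 78 of the genes higher and 62 of the genes lower in OC reached 1. Without the HH pair the counts were 325 and 266. The labels do not say that the libraries came from separate cultures, so p-values measured only the spread between these libraries, and fewer cells with an RNA and less of it per cell cannot be told apart in bulk RNA.

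The genes higher in OC were rich in A and T, and those lower in OC were rich in G and C. Of the longest coding transcript of each gene in GENCODE 29, 39.2% was G or C at the median of the genes higher in OC, 61.7% at the median of those lower in OC, and 49.5% over all genes tested. The genes higher in OC also had long 3' untranslated regions, 2201 bases at the median against 499 for the genes lower in OC and 951 for all. When the 14013 genes with a GC value were ranked into 10 groups of like size, the median log2 fold change went from 0.33 in the lowest group (29.03% to 38.99% GC) to -0.38 in the highest (62.4% to 85.5%). In the lowest group 392 of 1403 genes were called higher in OC and 0 lower, and in the highest 1 of 1402 was higher and 336 lower. Spearman's rho between GC content and log2 fold change, a description across genes that share the 6 libraries, was -0.628, and it was -0.564 in the HH pair, -0.586 in PF382 and -0.445 in TLOm1.

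**Figure D1:**
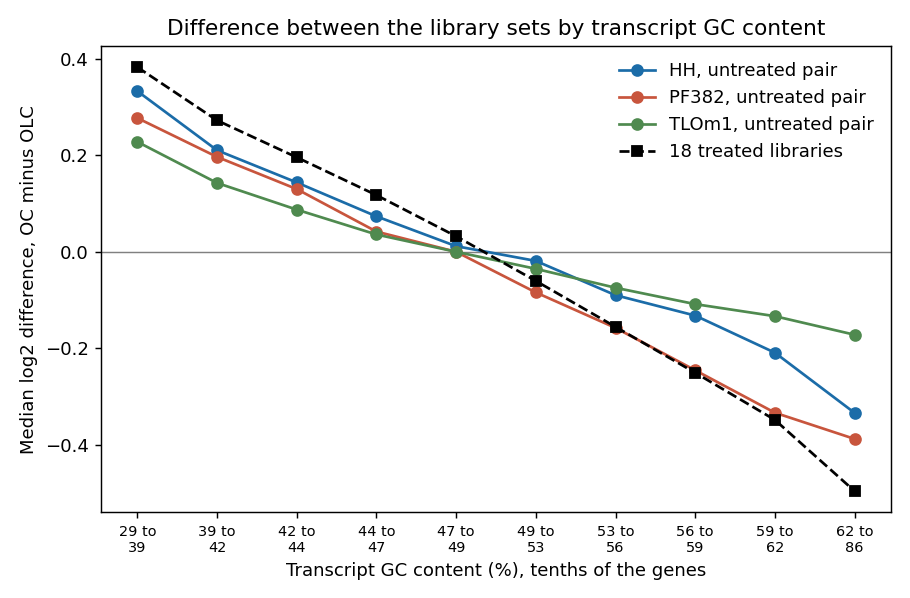
Median log2 difference between OC and OLC (y axis) for 10 groups of the genes ranked by transcript GC content (x axis, percent). Coloured lines are the untreated pairs of HH, PF382 and TLOm1, and the dashed line is the fit to the 18 treated libraries. In each the median falls from the lowest group, 0.33 in HH, 0.28 in PF382, 0.23 in TLOm1 and 0.38 in the treated libraries, to the highest, -0.33, -0.39, -0.17 and -0.50.

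MANEA, CPNE7 and AHDC1 show both ends of this range among called genes, and were chosen by their GC group and adjusted p after their values were seen. MANEA, an endo-mannosidase that trims glycans in the Golgi, had a transcript of 31.8% GC. It was at 18.7, 25.8 and 10.2 CPM in HH, PF382 and TLOm1 of OLC and 41.9, 45.1 and 18.7 CPM in OC, a log2 fold change of 0.95 (SE 0.13, edgeR adjusted p = 0.00556). Each line was higher in OC than its own OLC partner. At the other end, CPNE7, a calcium-dependent phospholipid-binding copine of 63.8% GC, was at 86.5, 26.7 and 106 CPM in OLC and 50.3, 12.7 and 46.5 CPM in OC, a log2 fold change of -1.01 (SE 0.11, edgeR adjusted p = 0.00309). AHDC1, which encodes an AT-hook DNA-binding protein with 64.3% GC in its transcript, was at 15.7, 51.6 and 8.98 CPM in OLC and 7.91, 25.8 and 4.04 CPM in OC, a log2 fold change of -1.04 (SE 0.14, edgeR adjusted p = 0.00556). Both were lower in OC in all 3 lines. The 120 coding bases below are, in the longest coding exon of each gene, the stretch nearest in GC content to the whole transcript (GENCODE 29, GRCh38), and capitals mark G and C. The MANEA stretch is at chr6:95605890-95606009, plus strand, that of CPNE7 at chr16:89595371-89595490, plus strand and that of AHDC1 at chr1:27551703-27551822, minus strand. They hold 31.7%, 64.2% and 64.2% GC.
MANEA: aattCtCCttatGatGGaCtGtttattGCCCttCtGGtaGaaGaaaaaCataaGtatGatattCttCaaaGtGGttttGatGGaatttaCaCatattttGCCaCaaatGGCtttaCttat
CPNE7: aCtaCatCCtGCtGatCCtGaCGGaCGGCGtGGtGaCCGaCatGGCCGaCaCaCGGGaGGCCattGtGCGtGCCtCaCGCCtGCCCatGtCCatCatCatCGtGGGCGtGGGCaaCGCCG
AHDC1: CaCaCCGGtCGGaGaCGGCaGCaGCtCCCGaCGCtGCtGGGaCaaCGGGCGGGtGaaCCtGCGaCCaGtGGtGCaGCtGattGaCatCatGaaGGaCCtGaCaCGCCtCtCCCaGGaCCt

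Other genes of low GC content were also higher in OC. TBL1XR1, a subunit of the nuclear corepressor complex with 34.5% GC, was at 175, 109.9 and 103 CPM in OLC and 325, 204 and 161 CPM in OC, a log2 fold change of 0.81 (SE 0.09, edgeR adjusted p = 0.00309). SOCS4, a suppressor of cytokine signalling, had a log2 fold change of 0.70 (edgeR adjusted p = 0.00491) and LYPLA1, an acyl-protein thioesterase, one of 0.70 (edgeR adjusted p = 0.00491). Among the GC-rich genes lower in OC, PIEZO1, a mechanically gated cation channel with 64.3% GC, was at 661, 582 and 804 CPM in OLC and 464, 333 and 424 CPM in OC, a log2 fold change of -0.75 (SE 0.10, edgeR adjusted p = 0.00556). CCND3, cyclin D3, was at 19.4, 677 and 41.5 CPM in OLC and 12.3, 389 and 25.6 CPM in OC, a log2 fold change of -0.72 (SE 0.09, edgeR adjusted p = 0.00491). These genes were named after their values were seen.

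The zinc finger, splicing and oxidative phosphorylation lists held most of their calls in a single direction. The zinc finger genes with numbered names, a large family of DNA-binding repressors with a median GC content of 43.5%, held 45 genes higher and 9 lower in OC of 459 tested, beside 5.59% and 5.03% of all genes, with a median log2 fold change of 0.20 against -0.03 over all genes. ZNF714 and ZNF92 were among those higher, at 0.75 and 0.84 (edgeR adjusted p = 0.00556 for each). Of 17 SR splicing proteins and CLK kinases, 3 were higher, namely CLK1, CLK4 and SRSF6, with log2 fold changes of 0.63, 0.69 and 0.35, and 0 lower. In oxidative phosphorylation, 2 genes were higher and 13 lower of 79, with a median of -0.14. Its largest falls were in ATP5D and NDUFV1, subunits of the ATP synthase and of complex I, at -0.66 and -0.52.

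When each library was corrected for transcript GC content and length by a smooth curve, an alternative added after the data were seen, 30 genes were higher and 9 lower in OC of 14013, that is 0.214% and 0.0642%. At an unadjusted p under 0.05 there were 733 higher and 1149 lower. Of 1568 genes called before the correction that had a GC value, 38 stayed called and 1506 stayed on the same side. The zinc finger median was 0.09 after correction, that of the SR proteins and CLK kinases 0.03 and that of oxidative phosphorylation -0.11, and 0 genes of the 3 lists stayed called.

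Genes that share long stretches of sequence with other genes were prominent among the large increases in OC. By the 2-fold rule in all 3 lines, 16 genes were higher in OC (0.103% of those tested) and 5 lower (0.0323%), and all 13 of the 16 that could be matched to GENCODE 29 shared at least 3% of their 50-base words with another gene, as did 18.7% of all 14013 genes tested that were matched. Not every large increase was of this kind: RSPO1, a secreted activator of WNT signalling with no shared word, was at 0.0433, 0 and 0 CPM in HH, PF382 and TLOm1 of OLC and 1.05, 0.704 and 1.09 CPM in OC (edgeR adjusted p = 0.00799). POTEE, whose 3' part is an actin copy, shared 73.9% of its words, and was at 0.476, 0.329 and 0.590 CPM in HH, PF382 and TLOm1 of OLC and 17.4, 9.92 and 19.6 CPM in OC, a log2 fold change of 5.05 (SE 0.25, edgeR adjusted p = 8.04e-06). MTRNR2L8, a nuclear copy of mitochondrial ribosomal RNA, was at 0.736, 0.288 and 0.0844 CPM in OLC and 10.1, 1.64 and 4.65 CPM in OC, a log2 fold change of 3.84 (SE 0.45, edgeR adjusted p = 0.00461). In neither of these did the sets overlap. MTRNR2L8 and RSPO1 passed the count filter through the OC libraries alone, which favoured a rise in OC. How reads that map to several places were counted is not given in the sources used here.

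**Figure D2:**
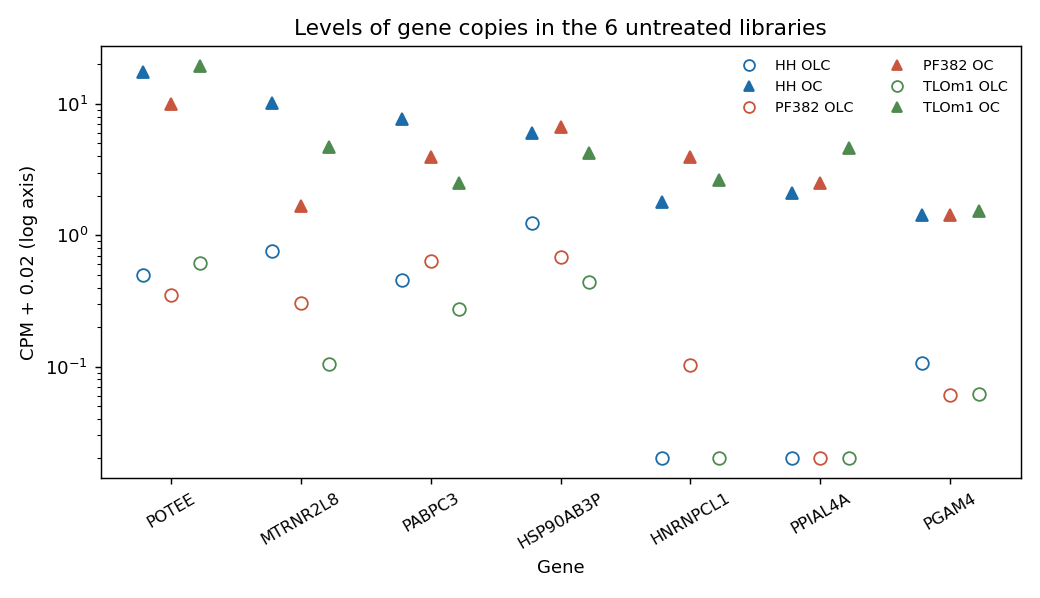
Levels of 7 genes that share sequence with other genes (x axis) as CPM plus 0.02 on a log axis (y axis) in the 6 untreated libraries, open circles for OLC and filled triangles for OC, coloured by line. For each gene every OC library lies above every OLC library, with POTEE at 9.92 to 19.6 CPM in OC against 0.329 to 0.590 in OLC. All but POTEE and HSP90AB3P passed the count filter through the OC libraries alone, which favoured this.

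For 4 copies the parent gene, which was far more abundant, was not called. HSP90AB3P is a processed pseudogene of HSP90AB1, the constitutive cytosolic HSP90 chaperone. The pseudogene was at 1.21, 0.657 and 0.422 CPM in OLC and 5.97, 6.63 and 4.23 CPM in OC, a log2 fold change of 2.92 (SE 0.32, edgeR adjusted p = 0.00309), while HSP90AB1 was at 2749, 1660 and 1337 CPM in OLC and 2135, 1741 and 1188 CPM in OC, a log2 fold change of -0.16 (edgeR adjusted p = 0.359). PGAM4, an intronless copy of the glycolytic enzyme PGAM1, was at 0.0866, 0.0411 and 0.0422 CPM in OLC and 1.41, 1.41 and 1.52 CPM in OC, a log2 fold change of 4.55 (SE 0.58, edgeR adjusted p = 0.00502), against -0.17 (edgeR adjusted p = 0.342) for PGAM1. RPL23P8, a pseudogene of the ribosomal protein gene RPL23, was at 0.173, 0.0411 and 0 CPM in OLC and 2.57, 2.47 and 2.56 CPM in OC, and RPL23 had a log2 fold change of -0.03 (edgeR adjusted p = 0.866). HNRNPCL1, an intronless relative of the RNA-binding protein gene HNRNPC, was at 0, 0.0821 and 0 CPM in OLC and 1.78, 3.93 and 2.61 CPM in OC, with -0.08 (edgeR adjusted p = 0.625) for HNRNPC. In each copy the sets did not overlap. PPIAL4A, a copy of the cyclophilin gene PPIA, had 0 counts in each OLC library, where 3 counts would be 0.122 to 0.131 CPM, and 2.10, 2.47 and 4.56 CPM in OC. PGAM4, RPL23P8, HNRNPCL1 and PPIAL4A passed the count filter through the OC libraries alone. For these genes a rise in OC and sets that do not overlap were nearly fixed by that filter.

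Shown are 120 bases of each transcript, the stretch that differs least within the pair while differing in at least 2 places (GENCODE 29, GRCh38, capitals mark the bases that differ within a pair). Within these stretches the pairs differ by 2 bases for PGAM4, 2 for HSP90AB3P, 6 for HNRNPCL1 and 4 for RPL23P8. Whole transcripts were less alike. The share of 50-base words held in common with the parent was 46.5% for PGAM4, 19.3% for HSP90AB3P, 3.12% for HNRNPCL1 and 16.4% for RPL23P8. The stretches lie at chrX:77969380-77969499, minus strand (PGAM4) and chr10:97430379-97430498, plus strand (PGAM1), at chr4:87891843-87891962, plus strand (HSP90AB3P) and chr6:44248630-44248749, plus strand (HSP90AB1), at chr1:12848134-12848253, minus strand (HNRNPCL1) and chr14:21234038-21234157, minus strand (HNRNPC), and at chr7:20827423-20827542, plus strand (RPL23P8) and chr17:38852613-38852732, minus strand (RPL23).
PGAM4: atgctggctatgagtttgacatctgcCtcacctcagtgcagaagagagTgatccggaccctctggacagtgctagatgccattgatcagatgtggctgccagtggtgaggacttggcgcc
PGAM1: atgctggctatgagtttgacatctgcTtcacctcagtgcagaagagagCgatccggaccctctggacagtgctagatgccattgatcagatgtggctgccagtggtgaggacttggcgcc
HSP90AB3P: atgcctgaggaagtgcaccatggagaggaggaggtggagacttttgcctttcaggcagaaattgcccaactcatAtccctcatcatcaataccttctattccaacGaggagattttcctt
HSP90AB1: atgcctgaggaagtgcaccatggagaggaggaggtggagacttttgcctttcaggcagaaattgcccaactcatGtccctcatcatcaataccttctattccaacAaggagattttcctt
HNRNPCL1: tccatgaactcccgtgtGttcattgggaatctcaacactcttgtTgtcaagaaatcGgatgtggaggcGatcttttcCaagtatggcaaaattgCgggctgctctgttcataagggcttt
HNRNPC: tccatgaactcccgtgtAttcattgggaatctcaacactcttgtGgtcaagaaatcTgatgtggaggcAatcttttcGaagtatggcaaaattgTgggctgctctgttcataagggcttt
RPL23P8: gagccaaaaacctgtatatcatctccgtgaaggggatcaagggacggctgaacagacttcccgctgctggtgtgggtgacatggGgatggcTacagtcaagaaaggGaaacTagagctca
RPL23: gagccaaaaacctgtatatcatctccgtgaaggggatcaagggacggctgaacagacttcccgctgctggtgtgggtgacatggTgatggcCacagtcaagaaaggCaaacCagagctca

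A wider set was defined after these values were seen, as genes that shared at least 3% of their 50-base words with a gene at least 10 times as abundant. Not all of them are copies: SNORD22, whose words all lie in SNHG1, and STX16-NPEPL1, which shares words with STX16, are among them. Of 175 such genes, 23 were higher (13.1%) and 1 lower in OC, with a median log2 fold change of 0.24, and 44 were higher and 7 lower by at least 1 on the log2 scale. Of all 15501 genes tested, 182 were higher and 257 lower by at least 1. Some of the 175, such as HNRNPCL1, passed the count filter only through the OC libraries. Of the 139 more abundant genes they were matched to, POTEE among them, 11 were higher and 8 lower, with a median of -0.02. Genes without a shared word numbered 8684, of which 422 were higher (4.86%) and 538 lower. Among 40 processed pseudogenes 13 were higher and 0 lower, where 5.59% and 5.03% of all genes were, with a median of 0.75. All such levels are uncertain, since reads may be split between genes that share sequence.

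Some noncoding RNAs were lower in OC. MIR3648 was at 23, 6 and 20.5 CPM in HH, PF382 and TLOm1 of OLC and 0.838, 0.528 and 1.47 CPM in OC, a log2 fold change of -4.08 (SE 0.27, edgeR adjusted p = 8.27e-05). MIR3687 was at 12.4, 2.34 and 8.86 CPM in OLC and 0, 0.0587 and 0.855 CPM in OC, a log2 fold change of -4.67 (SE 0.73, edgeR adjusted p = 0.0192), and MIR663 had a log2 fold change of -2.76 (SE 0.39, edgeR adjusted p = 0.00655). In all 3 the OLC libraries lay above the OC libraries, line by line. MIR3687 passed the count filter through the OLC libraries alone, which favoured a fall in OC. MIR3648 stayed called after the GC and length correction, at -3.13 (edgeR adjusted p = 0.00109). MIR663 did not, and MIR3687 had no GC value. The files give counts per symbol and do not say which RNA over these loci gave the reads. The mature sequences are printed for their base composition, with the seed (bases 2 to 8) in capitals. RefSeq (GRCh38.p14) places a copy of hsa-miR-3648 at chr21:8987026-8987046, plus strand and hsa-miR-663a at chr20:26208243-26208264, minus strand, with 81% and 90.9% GC.
hsa-miR-3648: aGCCGCGGggaucgccgaggg
hsa-miR-663a: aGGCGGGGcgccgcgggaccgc

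RN7SL1 and RN7SL2 encode 7SL, the RNA of the signal recognition particle that guides secretory proteins to the endoplasmic reticulum. RN7SL2 was at 7.75, 5.46 and 15 CPM in OLC and 3.14, 1.23 and 2.04 CPM in OC, a log2 fold change of -2.10 (SE 0.31, edgeR adjusted p = 0.00850), and RN7SL1 at 9.79, 4.39 and 18 CPM and 6.13, 1.53 and 3.13 CPM, a log2 fold change of -1.56 (SE 0.34, edgeR adjusted p = 0.0276). Neither stayed called after the GC and length correction (edgeR adjusted p = 0.107 for RN7SL2 and 0.268 for RN7SL1). RN7SK, the 7SK RNA that holds the elongation factor P-TEFb inactive, had a log2 fold change of -1.54 (edgeR adjusted p = 0.101), and RMRP, of the RNase MRP particle, one of -1.30 (edgeR adjusted p = 0.0854), neither past the threshold. RPPH1, the RNA of RNase P, was at 0.866, 0.657 and 0.970 CPM in OLC and 2.20, 0.352 and 0.475 CPM in OC, with a log2 fold change of 0.03 (edgeR adjusted p = 0.980), and was higher in OC in HH alone. The broad list of small RNAs without a poly(A) tail, mostly snoRNAs, had 1 gene higher and 2 lower of 162, with a median of 0.03. Replication-dependent histone messages, which end in a stem-loop in place of a poly(A) tail, had 0 higher and 3 lower of 40, where 5.03% of all genes were called lower, with a median of -0.63. HIST1H1E was at 1.30, 1.03 and 7.47 CPM in OLC and 0.367, 0.117 and 2.85 CPM in OC, a log2 fold change of -1.73 (SE 0.37, edgeR adjusted p = 0.0185), and HIST1H2AE fell by 1.31 on the log2 scale (edgeR adjusted p = 0.0459). Of these histone genes 28 were lower in all 3 lines and 0 higher, where 25.4% and 22% of all genes were. The histone median was -0.65 after the GC and length correction, and 0 of the 3 stayed called (edgeR adjusted p = 0.173 for HIST1H1E and 0.258 for HIST1H2AE). The labels name both poly(A) RNA and RNA depleted of ribosomal RNA for every library.

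The immediate early genes EGR1, FOS and FOSB were lower in OC. Such genes mostly encode transcription factors that are induced within minutes of serum or antigen receptor signals. EGR1 was at 1.82, 87.2 and 6.28 CPM in HH, PF382 and TLOm1 of OLC and 0.524, 24.7 and 3.04 CPM in OC, a log2 fold change of -1.55 (SE 0.19, edgeR adjusted p = 0.00491). FOS was at 0.303, 8.50 and 3.92 CPM in OLC and 0.0524, 2.47 and 0.855 CPM in OC, a log2 fold change of -1.98 (SE 0.32, edgeR adjusted p = 0.0100), and FOSB at 37.7, 2.63 and 8.90 CPM and 15.9, 1.12 and 3.70 CPM, a log2 fold change of -1.25 (SE 0.18, edgeR adjusted p = 0.00691). In each line all 3 were lower in the OC library than in its partner, although the lines differed among themselves by more than the sets did. JUN was at 181, 41.7 and 109 CPM in OLC and 57.5, 11.4 and 72.6 CPM in OC, with a log2 fold change of -1.34 (SE 0.28, edgeR adjusted p = 0.0575), not past the threshold. Over the list, 0 of 20 genes were higher and 3 lower, where 5.03% of all genes were called lower, with a median of -0.40, and the medians by line were -0.35 in HH, -0.57 in PF382 and -0.01 in TLOm1. EGR1 and FOSB stayed called after the GC and length correction, at -1.44 and -1.09 (edgeR adjusted p = 0.0214 and 0.0442), and FOS was at -1.93 (edgeR adjusted p = 0.0554).

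A few heat shock chaperones were lower in OC. Of 15 genes, 3 were lower and 0 higher in OC, beside 5.03% and 5.59% of all genes: HSPA1A, the inducible HSP70, at -0.90, HSPA8, the constitutive form, at -0.51, and HSPH1, an HSP110 exchange factor, at -0.42. HSPH1 was at 338, 243 and 344 CPM in OLC and 249, 172 and 278 CPM in OC, and stayed called after the correction at -0.68 (edgeR adjusted p = 0.0214). HSPA1A and HSPA8 did not stay called (edgeR adjusted p = 0.268 and 0.108). FKBP4, a co-chaperone of HSP90 outside that list, was at 229.8, 232 and 245 CPM in OLC and 130.5, 169.9 and 155 CPM in OC, a log2 fold change of -0.64 (SE 0.10, edgeR adjusted p = 0.00799), and -0.64 after the correction (edgeR adjusted p = 0.0290). Each OC library lay below each OLC library for FKBP4.

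Targets of p53 were called in both directions. Of 20 genes tested, 5 were higher and 1 lower, where 5.59% and 5.03% of all genes were, with a median of 0.19. By line the median difference was 0.18 in HH, -0.19 in PF382 and 0.24 in TLOm1, so PF382 lay on the other side. MDM2, the ubiquitin ligase that degrades p53 and is itself a p53 target, was at 54.4, 85.2 and 69.2 CPM in OLC and 105, 168 and 122 CPM in OC, a log2 fold change of 0.92 (SE 0.09, edgeR adjusted p = 0.00189). After the GC and length correction it was at 0.77 (edgeR adjusted p = 0.00925). CCNG1, RRM2B and FAS were at 0.61, 0.61 and 0.56 (edgeR adjusted p = 0.0274, 0.0118 and 0.0153), and none of them passed the threshold after the correction. CDKN1A, the p21 cell cycle inhibitor, was at 10.1, 2.09 and 167 CPM in OLC and 22.9, 1.17 and 196 CPM in OC (edgeR adjusted p = 0.435), and BAX, a mediator of apoptosis, was lower at -0.41 (edgeR adjusted p = 0.0263).

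Genes of glycolysis that were called were all lower in the OC set, and the list was lowest in PF382. Of 22 genes, 6 were lower and 0 higher in OC (12 and 0 at an unadjusted p under 0.05 in edgeR), and 14 were lower in all 3 lines. Of all genes 5.03% were called lower and 25.4% were lower in all 3 lines. The median log2 fold change was -0.43, and the median differences per line were -0.28 in HH, -0.84 in PF382 and -0.05 in TLOm1. Called genes were SLC2A3, a glucose transporter, at -0.95, HK1, a hexokinase, at -0.50, the phosphofructokinases PFKL, PFKM and PFKP at -0.66, -0.44 and -0.66, and the enolase ENO2 at -0.53. PFKL was at 369, 115 and 289.5 CPM in OLC and 269.9, 54.9 and 207 CPM in OC, a log2 fold change of -0.66 (SE 0.12, edgeR adjusted p = 0.0153). After the GC and length correction 0 of the 22 were called, with a median of -0.37. HK2, the hexokinase of proliferating cells, was at 148, 142 and 99.3 CPM and 63.9, 71.5 and 92.9 CPM (edgeR adjusted p = 0.111).

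Genes of the hypoxia response lay on opposite sides in PF382 and TLOm1. Cells short of oxygen stabilise the factor HIF, which binds the motif ACGTG and induces genes that spare oxygen and feed glycolysis. Of 18 genes 0 were called in edgeR, where 10.6% of all genes were, and 2 were lower and 0 higher at an unadjusted p under 0.05. The median differences in log2(CPM + 1) were -0.24 in HH, -1.05 in PF382 and 0.34 in TLOm1. In PF382 17 of the 18 were lower in OC, in TLOm1 18 of 18 were higher, and in HH 12 were lower and 6 higher. Of all 15501 genes tested, 8488 were lower in PF382, 7398 were higher in TLOm1, and 7396 were lower and 7394 higher in HH. In PF382, 11 of the 18 were at least 2-fold lower in OC, where 1.82% of all genes were. In TLOm1 1 was at least 2-fold higher, where 0.51% of all genes were. BNIP3, a mitophagy receptor, was at 51.8, 101 and 18.3 CPM in HH, PF382 and TLOm1 of OLC and 30.01, 21.6 and 36.6 CPM in OC. PDK1, which keeps pyruvate out of the mitochondria, was at 103, 60.3 and 24.1 CPM in OLC and 90.9, 24.6 and 38 CPM in OC. Both were lower in OC in HH and PF382 and higher in TLOm1. A single pair of libraries per line gives no replicate check for such differences.

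CPM values for single lines beside treated libraries were scaled over all 24 libraries. Against the other libraries of its line, the untreated OLC library of PF382 stood apart in these genes. It was the highest of the 8 PF382 libraries for 21 of 22 glycolysis genes and for 14 of 18 hypoxia genes, where this held for 15.6% of all genes tested. The untreated OC library was the highest for 1 of the 22 and 0 of the 18, where it was for 9.72% of all genes. BNIP3 was at 100.4 CPM in the untreated OLC library and at 21.4 CPM in the untreated OC library, and ranged over 5.10 to 22.1 CPM in the 3 azacitidine and 8.88 to 22 CPM in the 3 decitabine libraries. PFKFB4, which makes the activator of phosphofructokinase, was at 46.8 and 5.94 CPM untreated, and at 5.28 to 8.50 and 3.63 to 4.59 CPM treated. ALDOC, a fructose-bisphosphate aldolase, was at 89.3 and 29.9 CPM untreated, and at 7.67 to 21 and 19.1 to 28.8 CPM treated. For all 3 the untreated OC library lay much nearer to the treated libraries than the untreated OLC library did. In HH the untreated OLC library was the highest of 8 for 12 of the glycolysis and 7 of the hypoxia genes, and in TLOm1 for 6 and 0. Over all genes tested this held for 11.6% in HH and 15.8% in TLOm1. The treated libraries also carry a drug, and its part was not tested.

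**Figure D3:**
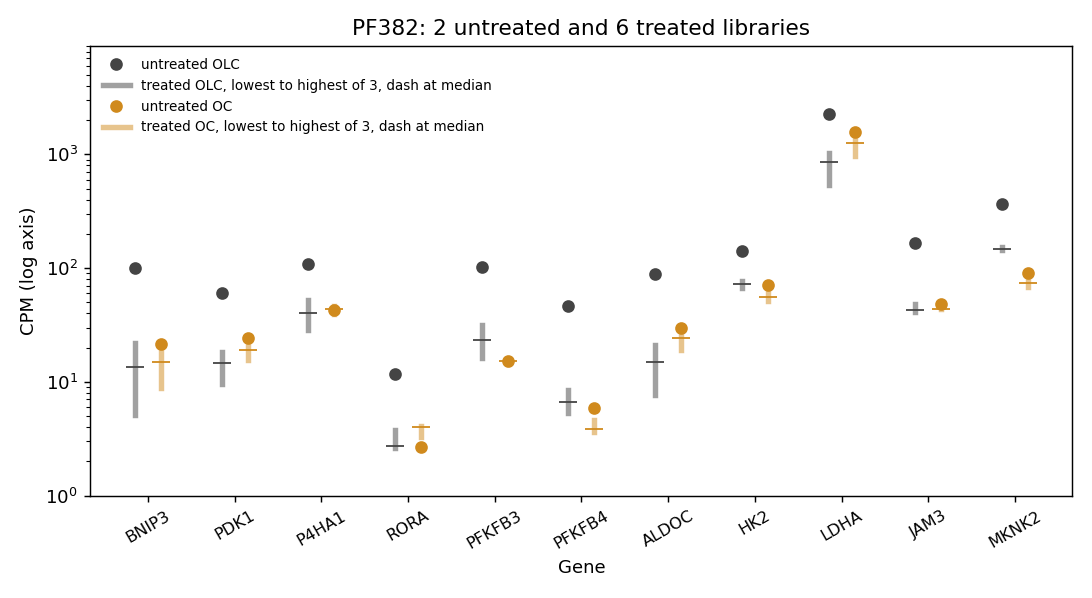
Levels of 11 genes (x axis) in CPM on a log axis (y axis) in the 8 PF382 libraries. Points are the untreated OLC and OC libraries, and bars run from the lowest to the highest of 3 treated libraries of each set, which differ in dose, with a dash at the median. The untreated OLC point lies above all other libraries for each gene, with JAM3 at 168 CPM against 41.1 to 50.0 CPM in the other 7.

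The promoters of the hypoxia genes held the HIF motif more often than all promoters did. ACGTG was found on either strand of the 250 bases before the start in 12 of 19 hypoxia promoters (63.2%) and 8 of 20 glycolysis promoters (40%), against 18.7% of all 27305 RefSeq promoters and 23% of those of genes tested. The match is a description, and no binding was measured. The hypoxia list was drawn up from known genes of that response, so the excess is not a result of these libraries. Shown are 80 bases of the promoters of the 3 genes with the largest fall in PF382 that held a match, BNIP3 at chr10:131982015-131982094, minus strand, BHLHE40, a circadian and hypoxia-induced repressor, at chr3:4979250-4979329, plus strand, and AK4, a mitochondrial adenylate kinase, at chr1:65147422-65147501, plus strand (GRCh38.p14), with matches in capitals. CACGTG holds a match on both strands. In PF382, BHLHE40 was at 4.44 CPM in OLC and 0.235 CPM in OC, and AK4 at 53 CPM and 15.8 CPM.
BNIP3: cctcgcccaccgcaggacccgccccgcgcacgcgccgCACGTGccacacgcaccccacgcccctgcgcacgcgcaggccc
BHLHE40: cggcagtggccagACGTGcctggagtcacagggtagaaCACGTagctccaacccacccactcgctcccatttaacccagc
AK4: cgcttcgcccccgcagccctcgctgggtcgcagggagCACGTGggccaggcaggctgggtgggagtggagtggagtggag

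**Figure D4:**
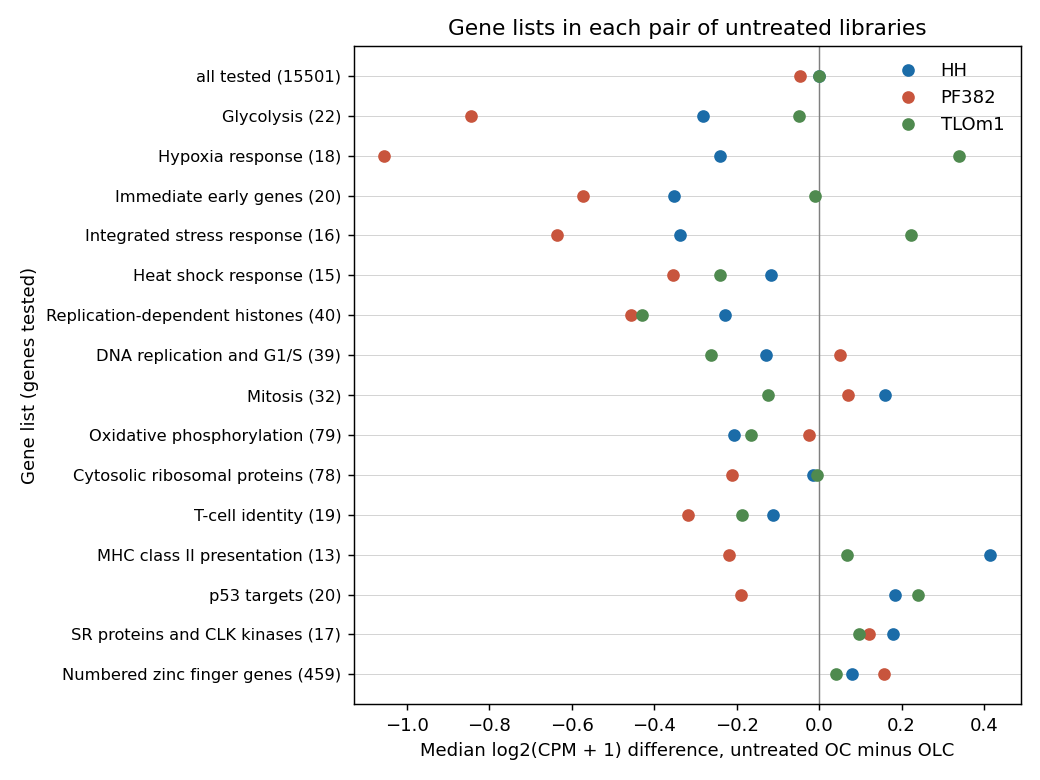
Median difference in log2(CPM + 1) between the untreated OC and OLC libraries (x axis) for 15 gene lists and for all genes tested (y axis, number of genes in brackets), with a point for each line. Glycolysis and the hypoxia response are lowest in PF382, at -0.84 and -1.05, and the hypoxia response lies at 0.34 in TLOm1.

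A test of whether the PF382 difference was unlike that of the other lines was added after the data were seen. Its model held all 24 libraries, but each untreated library was alone in its group. The spread therefore came only from the treated libraries, with their doses pooled. The test called 1 gene higher (0.00645%) and 27 lower (0.174%). At an unadjusted p under 0.05 there were 1400. MKNK2, a kinase that phosphorylates the cap-binding factor eIF4E, was at 742, 368 and 401 CPM in HH, PF382 and TLOm1 of OLC and 609, 91.1 and 397 CPM in OC, and the PF382 change differed from that of the other lines by -1.86 (edgeR adjusted p = 0.000428). RORA, a nuclear receptor in the hypoxia list, was at 74.7, 11.9 and 71.2 CPM in OLC and 84, 2.70 and 104 CPM in OC, and differed by -2.49 (edgeR adjusted p = 0.00221). JAM3, an adhesion molecule, was at 4.07, 169 and 21.5 CPM and 4.50, 49.1 and 22.6 CPM, and differed by -1.89 (edgeR adjusted p = 0.000572). SYT1, a calcium sensor of vesicle fusion, differed in the other direction, at 164, 0.863 and 111 CPM in OLC and 153, 3.76 and 109.8 CPM in OC, with 2.17. NFKB2, a subunit of NF-kappaB, differed by -1.20 (edgeR adjusted p = 0.0305), and TNFAIP3, which restrains that pathway, by -1.25 (edgeR adjusted p = 0.0153). LSP1, which binds F-actin in white blood cells, differed by -1.84 (edgeR adjusted p = 0.00750) and CD74, the invariant chain of MHC class II, by -4.16 (edgeR adjusted p = 0.00750). CD74 was at 3459, 2.67 and 7925 CPM in OLC and 4613, 0.176 and 8766 CPM in OC. In PF382 it was at 2.59 to 2.97 CPM in the treated OLC and 0.359 to 0.813 CPM in the treated OC libraries. The same test called 0 genes in either direction for HH and 0 for TLOm1 in edgeR, with 830 and 796 at an unadjusted p under 0.05.

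The size of the differences also varied between lines. The standard deviation of the log2 differences over genes was 0.360 in HH, 0.398 in PF382 and 0.309 in TLOm1. In PF382, 282 genes were at least 2-fold lower in OC and 43 higher (1.82% and 0.277%), while in HH 94 were lower and 104 higher (0.606% and 0.671%), and in TLOm1 32 lower and 79 higher (0.206% and 0.51%). Genes that moved in a single line while the others stayed within 0.5 on the log2 scale included, in HH, SH3BGRL2, at 0.650 CPM in OLC and 3.88 CPM in OC, and APOL2, an apolipoprotein L, at 121 CPM and 42.7 CPM. In PF382, PPFIA4 was at 35.1 CPM in OLC and 5.22 CPM in OC, SLC16A3, a lactate exporter, at 14.3 CPM and 1.82 CPM, and the lysophosphatidic acid receptor gene LPAR4 at 2.18 CPM and 6.98 CPM. In TLOm1, the pigment transporter gene OCA2 was at 8.60 CPM in OLC and 34.3 CPM in OC, CD38 at 0.675 CPM and 4.99 CPM, and SMAD6 at 5.82 CPM and 1.90 CPM. These have no replicate check.

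Lists of T-cell identity and DNA replication held more genes lower than higher in OC, where 5.59% of all genes were higher and 5.03% lower. Of 19 T-cell genes 0 were higher and 3 lower, with a median of -0.25, among them CD6 at -0.45 and BCL11B at -0.31 (edgeR adjusted p = 0.0310 and 0.0477), and after the GC and length correction 0 were called. Of 39 genes of DNA replication 1 was higher, CCNE2 at 0.75, and 7 lower, with POLD1, TK1 and CDT1 at -0.52, -0.50 and -0.46, and a list median of -0.08. The replication medians by line were -0.13 in HH, 0.05 in PF382 and -0.26 in TLOm1. After the GC and length correction 0 of the 39 were called. Of 32 mitosis genes 1 was higher and 0 lower, with a median of 0.04. MHC class II genes, which present peptides on antigen-presenting and activated T cells, had 0 called of 13 by edgeR (1 higher and 0 lower at an unadjusted p under 0.05), and the medians were 0.42 in HH, -0.22 in PF382 and 0.07 in TLOm1. The lists of B cells, myeloid cells, epithelial cells and fibroblasts had 0 called by edgeR among 5, 4, 5 and 4 genes tested. For the enzymes that take up and activate cytidine analogs, 1 of 8 was higher, CMPK1 at 0.40 (edgeR adjusted p = 0.0265), and 0 lower.

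Among the genes that stayed called after the GC and length correction, several were neither copies nor noncoding. RUNX2, a transcription factor of bone and lymphoid cells with 60.9% GC, was at 159, 1.11 and 33.3 CPM in HH, PF382 and TLOm1 of OLC and 268, 1.35 and 64.5 CPM in OC, a log2 fold change of 0.80 (SE 0.12, edgeR adjusted p = 0.00799), and 1.03 after the correction (edgeR adjusted p = 0.00925). It was higher in OC although its transcript is GC-rich. FNIP1, which binds folliculin and the energy sensor AMPK, was at 19.2, 21.5 and 21 CPM in OLC and 40.02, 40.8 and 39.3 CPM in OC, and 0.77 after the correction (edgeR adjusted p = 0.0252). WEE1, the kinase that holds back entry into mitosis, was at 0.56 (edgeR adjusted p = 0.0407), PAN3, a subunit of a poly(A) nuclease, at 0.60 (edgeR adjusted p = 0.0442), and VMA21, an assembly factor of the vacuolar proton pump, at 0.64 (edgeR adjusted p = 0.0247). Among those lower, FUT7, a fucosyltransferase that makes selectin ligands, was at 12.3, 0.0411 and 93.3 CPM in OLC and 3.82, 0 and 44.4 CPM in OC, and -1.03 after the correction (edgeR adjusted p = 0.0430). NRN1, neuritin, was high in PF382 alone, at 165 CPM in OLC and 62.3 CPM in OC, and -1.28 after the correction (edgeR adjusted p = 0.0407).

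Other decreases were named for the size of the fold change among called genes. ITGA5, the fibronectin receptor subunit, was at 0.0433, 33.6 and 0.380 CPM in OLC and 0, 11.8 and 0.0475 CPM in OC, a log2 fold change of -1.61 (SE 0.32, edgeR adjusted p = 0.0153). TYRO3, a receptor tyrosine kinase, was at 0.260, 9.53 and 11.2 CPM and 0.0524, 3.05 and 5.32 CPM, a log2 fold change of -1.37 (SE 0.27, edgeR adjusted p = 0.0153). F12, coagulation factor XII, PDF, a mitochondrial peptide deformylase, and CAMSAP3, which binds microtubule ends, had log2 fold changes of -1.39, -1.62 and -1.35 (edgeR adjusted p = 0.0211, 0.0314 and 0.0462). Of these, ITGA5 was under 1 CPM in HH and TLOm1, so most of its counts came from PF382. CAMSAP3 was at 0.0422 CPM in OLC and 0 CPM in OC of TLOm1. After the GC and length correction none of these genes stayed called. The edgeR adjusted p was then 0.135 for ITGA5, 0.107 for TYRO3, 0.236 for F12, 0.218 for PDF and 0.369 for CAMSAP3.

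The same contrast in the 18 treated libraries, which share no library with the untreated ones, gave a comparison of the sets in other samples. There the drug goes with the set and cannot be told apart from it, and its doses were pooled. Of 16065 genes tested, 3802 were higher and 3775 lower in OC (23.7% and 23.5%), and with the GC and length correction 1582 were higher and 2532 lower. Of the 863 genes higher in untreated OC that were tested there, 862 were higher and 856 called, and of the 779 lower, 775 were lower and 730 called. Over 15346 genes tested in both, 81.3% had the same direction. The rho of GC content with log2 fold change was -0.679 in the treated libraries. POTEE and MIR3648 had treated log2 fold changes of 5.45 and -3.91 (edgeR adjusted p = 8.88e-12 and 6.14e-06), MDM2 one of 0.84 (edgeR adjusted p = 4.16e-08) and EGR1 one of -1.10 (edgeR adjusted p = 0.000242). FOSB was at -1.04 (edgeR adjusted p = 0.00586), and FOS, at -0.69, was not called (edgeR adjusted p = 0.109).

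The lists of glycolysis and the hypoxia response had other medians in the treated libraries. The treated median was -0.15 for glycolysis, with 1 gene higher and 7 lower of 22, and 0.18 for the hypoxia response, with 6 higher and 3 lower of 20. Of all genes tested there, 23.7% were higher and 23.5% lower. In PF382 the treated difference had a median of -0.11 for glycolysis and 0.25 for the hypoxia response, against -0.84 and -1.05 untreated. For immediate early genes the treated median was -0.30 (1 higher and 8 lower of 21) and for the histones -0.48 (0 higher and 12 lower of 42). The integrated stress response, in which amino acid or folding stress induces ATF4 and its targets, had 0 of 16 genes called in untreated cells by edgeR, 1 higher and 4 lower at an unadjusted p under 0.05, and the medians were -0.34 in HH, -0.63 in PF382 and 0.22 in TLOm1. In the treated libraries its median was -1.14, with 0 higher and 14 lower of 16.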

How the data were processed

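RNA sequencing of 6 untreated libraries was analysed, with 18 treated libraries beside them. The authors deposited raw counts per gene symbol (25559 a library). STAR, limma, DESeq2 and the build GRCh37.p2 are listed in the processing notes of the submitters, without versions or roles. For the strand setting and for reads that map to several places, the treatment is not given in the sources used here. Depth ran in the 6 libraries from 15348774 to 24608889 counts.

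Genes with enough counts (filterByExpr, minimum count 10, total 15) were scaled by TMM and tested with edgeR 4.0.16 (R 4.3.3) by the quasi-likelihood test with the line as a block, at a Benjamini-Hochberg adjusted p under 0.05. Fold changes are OC minus OLC. Same-line libraries deviated together (correlations 0.972, 0.974 and 0.971), and the lines are the pairs. Differences of a single line are in log2(CPM + 1). GC content, length and shared 50-base words came from the longest coding transcript of GENCODE 29, which matched 20245 symbols and a further 1748 by another symbol, and left 3566 unmatched. GC and length were corrected by a loess curve per library (span 0.3). On simulated counts for the untreated comparison, over 15357 genes, 98% of changes of 1 and 100% of changes of 2 on the log2 scale were recovered, with 11 false calls.

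The members and gene lists were chosen with earlier results of these data known. Named genes were the 15 largest changes in each direction among called genes averaging 1 CPM or more, of the same sign in all 3 lines, up to 4 a list, and 4 a direction for each line while the other lines stayed within 0.5. Genes outside the rule are said to be so or stand in a list of calls. Alternatives used limma 3.58.1 and DESeq2 1.42.0. GRCh38 coordinates are those of the sequence sources, not of the counting. Some genes are not reported here.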

Additional observations from a re-analysis of the deposited data

Results flagged for a closer look

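Both genes below are given because the difference between the sets in PF382 was unlike that in HH and TLOm1 by a test of the difference itself, in edgeR. Each untreated library was alone in its group there, so the spread came only from the treated libraries. For SYT1 that difference was 2.17 on the log2 scale (adjusted p = 0.0456). Its PF382 levels were 0.857 CPM in the untreated OLC and 3.73 CPM in the untreated OC library, and 1.81 to 2.88 CPM and 8.77 to 10.9 CPM in the treated libraries of the same sets. For MKNK2 the difference was -1.86 (adjusted p = 0.000428). Its PF382 levels were 366 and 90.3 CPM untreated, and 144 to 154 and 68 to 88.2 CPM treated.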

How the results depend on the processing

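With 3 pairs and 1 library per line and set, a difference in a single line has no replicate check. The untreated comparison gave 867 genes higher and 779 lower in OC. Without the replicate block edgeR called 0 and 0 (102 and 43 at an unadjusted p under 0.05), with the spread from all 24 libraries 1647 and 1609, and with the GC and length correction 30 and 9. Leaving out a line gave 325 to 1104 higher and 266 to 922 lower, lowest without HH. DESeq2 called 1216 and 1018, and limma voom 945 and 836. In the treated libraries the counts were 509 and 572 without the block, and 853 and 1138 at the lowest dose of each line. For azacitidine that dose was lower in HH than in PF382 and TLOm1. The counts were 1582 and 2532 with the correction, and 2786 to 3815 and 2738 to 3591 without a line. The 16 genes 2-fold higher in all lines became 32 with a pseudocount of 0.5, 2 with a pseudocount of 5, 2 among genes averaging 5 CPM or more and 81 at a fold of 1.5. The 5 lower became 1 with a pseudocount of 5, 3 with at least 5 CPM and 33 at a fold of 1.5. Without a line, the T-cell median ran from -0.25 to -0.10 (without PF382) and the histone median from -0.85 (without HH) to -0.58. The histone median was -0.34 as a mean of log2(CPM + 1) differences, and the zinc finger median 0.094 with the correction and 0.12 as such a mean. MVD, an enzyme of cholesterol synthesis, was at 0.00673 with the correction (edgeR adjusted p = 0.991). The cause of these shifts was not tested. Depth limits copies and noncoding RNAs, which had few counts in 1 of the sets.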
